A study of Mus musculus with 2 samples.

Results

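The genes described here encode the ligands, receptors, intracellular transducers, secreted modulators and ID target proteins of the bone morphogenetic protein (BMP) and transforming growth factor beta (TGF-beta) pathways. Their rule reads the protein-coding gene symbol and no measured value. Of 64 symbols that fitted the name pattern, 63 had a row among the 43346 genes of the deposited tables, and Gdf1 was not analysed here. The 63 members were sorted into 15 classes by role.

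Total RNA came from the midbrain of B6NCrl mouse embryos of both sexes at embryonic day 11.5. The labels name no treatment and no genetic change, so there was a single group without a contrast. The midbrains of 109 embryos were pooled for replicate 1 and those of 88 for replicate 2, and a pool hides how single embryos differ. The libraries held 38884247 and 45975100 expected counts on genes. Levels are given as TPM (a relative transcript abundance corrected for transcript length), and errors are SD over the 2 libraries (n = 2).

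Markers of the labelled tissue were present. Of 8 genes of the midbrain and its border 7 reached 1 TPM in both libraries, and Otx2 alone had 169 and 171 TPM, while 0 of 6 Hox genes, which mark hindbrain and spinal cord, did so (summed level 0.28 and 0.12 TPM). Neural progenitor genes reached that level in 6 of 6 cases (2494 and 2560 TPM summed) and young neuron genes in 5 of 5 (1243 and 1248 TPM). Other cell types were represented as well. Markers at 1 TPM numbered 10 of 10 for mesenchyme and meninges (752 and 714 TPM summed), 7 of 7 for endothelium (109 and 108 TPM), 4 of 5 for mural cells (58.6 and 59.2 TPM), 5 of 6 for macrophages (61.6 and 64.1 TPM) and 6 of 6 for erythroid cells (17360 and 17402 TPM). Roof plate and dorsal midline genes reached it in 6 of 6 cases (120 and 134 TPM summed), choroid plexus genes in 1 of 4 and neural crest genes in 1 of 4. Surface epithelium genes did so in 4 of 4 cases (21.2 and 22.1 TPM summed) and skeletal muscle genes in 2 of 4 (7.53 and 6.59 TPM). In such bulk tissue, fewer cells of a type and less RNA per cell cannot be told apart, and the part of each cell type in a member's level was not tested.

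BMP and TGF-beta ligands are secreted dimers that bring together type I and type II receptors, which are serine/threonine kinases. The type II receptor phosphorylates the type I receptor, which then phosphorylates receptor-regulated SMAD proteins. SMAD1, SMAD5 and SMAD9 serve mainly BMP signals, and SMAD2 and SMAD3 mainly TGF-beta and activin signals. These SMADs enter the nucleus with SMAD4 and act on target genes, of which the Id genes are classic direct targets of BMP signals. In the neural tube, BMP ligands from the roof plate and the neighbouring ectoderm pattern dorsal cell types.

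The pathway was present at every step from ligand to target gene, but its levels were very uneven. At the 1 TPM level in both libraries, 43 of the 63 members (68.3%) were detected, against 58.2% of all 21474 protein-coding genes. The median over these 43 members was 7.76 TPM, against 18.5 TPM over the 12496 protein-coding genes detected, and 14 of the 43 lay above that median. All members together summed to 1523 and 1524 TPM, and the 4 ID genes made up 52.0% and 53.2% of these sums. A mean of 10 TPM or more was reached by 18 members, and 20 members were not detected. Bmp2 and Bmper lay just inside the 1 TPM level, with library values from 1.04 to 2.07 TPM. Tgfb1 lay just outside it, at 1.06 TPM in replicate 1 and 0.59 TPM in replicate 2.

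**Figure D1:**
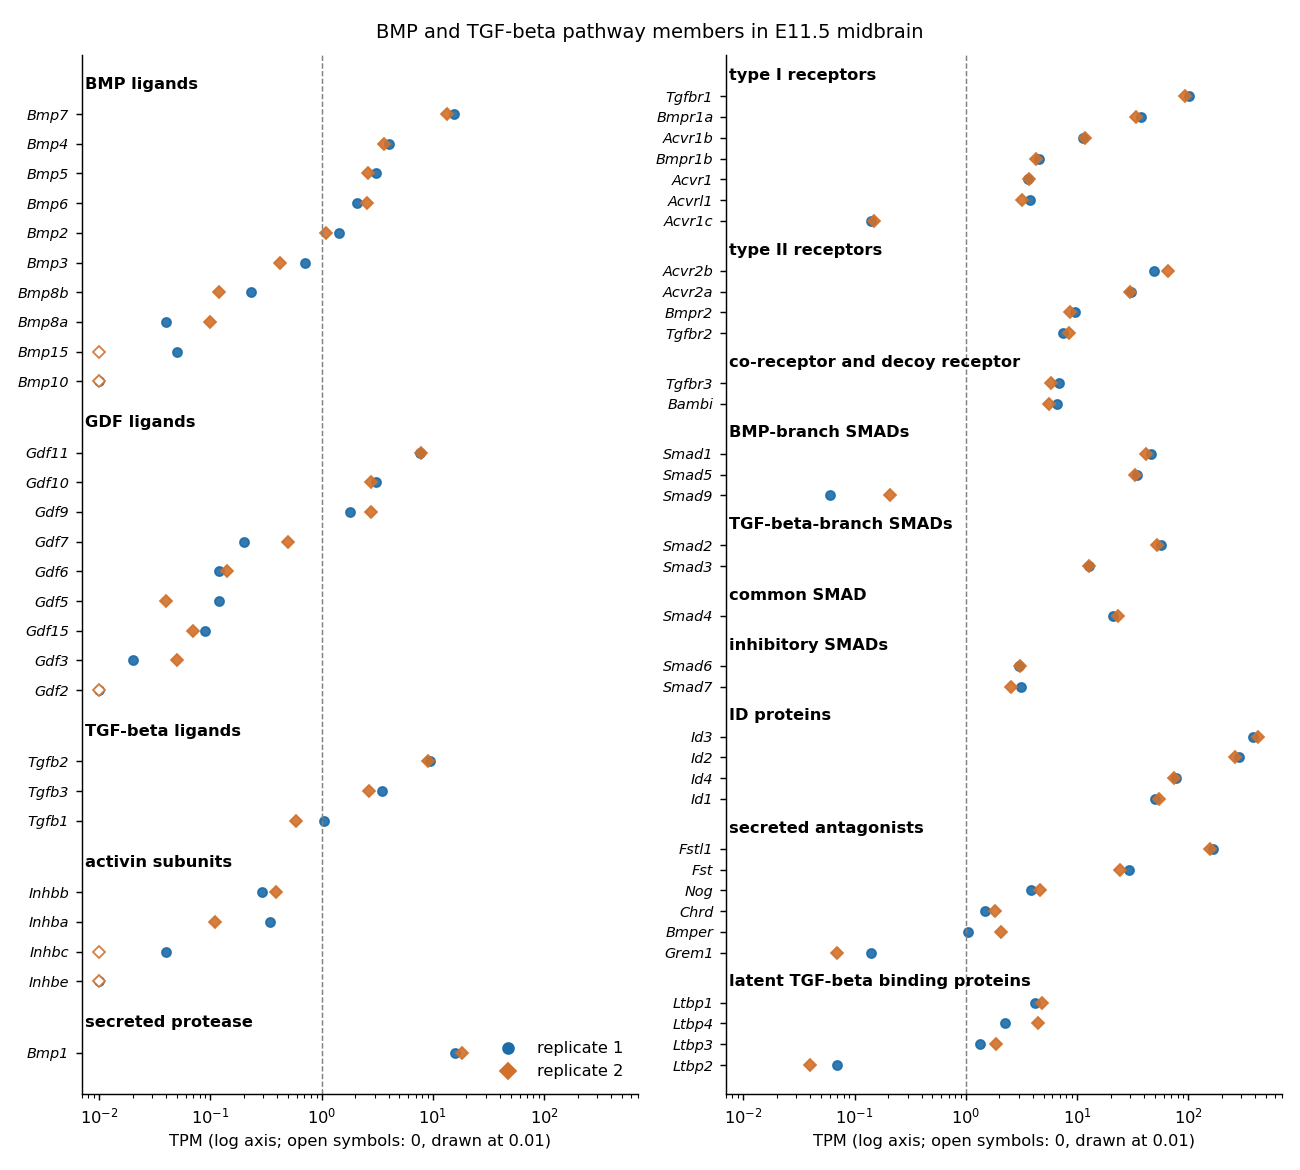
TPM of 62 members in replicate 1 (circles) and replicate 2 (diamonds), by class, on a log axis with the 1 TPM level dashed and values of 0 drawn as open symbols at 0.01. Id3 and Id2 lie farthest to the right, most ligands lie under 10 TPM, and the 2 libraries lie close together for most members above 1 TPM.

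Promoter windows of 4 members are shown because they stand at both ends of this range. Id4 and Tgfbr1 are among the 5 highest members, and Bmp10 and Gdf2 had 0 counts in both libraries. Each window holds the 250 bases before the RefSeq start on GRCm38.p6, on the gene's strand, and touches no annotated exon. They lie at chr13:48260866-48261115 (+) for Id4, chr4:47352972-47353221 (+) for Tgfbr1, chr6:87428744-87428993 (+) for Bmp10 and chr14:33940789-33941038 (+) for Gdf2. Capitals mark CpG dinucleotides, in which mammalian DNA is methylated.
Id4: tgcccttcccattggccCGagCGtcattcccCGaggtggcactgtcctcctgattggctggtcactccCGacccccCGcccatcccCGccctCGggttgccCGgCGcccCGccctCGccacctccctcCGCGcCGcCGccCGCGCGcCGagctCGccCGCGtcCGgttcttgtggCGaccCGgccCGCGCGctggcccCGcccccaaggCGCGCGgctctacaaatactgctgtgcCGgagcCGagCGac
Tgfbr1: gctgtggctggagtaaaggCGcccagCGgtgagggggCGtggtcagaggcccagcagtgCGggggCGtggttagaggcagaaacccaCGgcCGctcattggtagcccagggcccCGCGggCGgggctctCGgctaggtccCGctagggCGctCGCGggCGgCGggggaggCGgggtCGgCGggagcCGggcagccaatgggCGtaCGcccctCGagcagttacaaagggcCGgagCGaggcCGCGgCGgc
Bmp10: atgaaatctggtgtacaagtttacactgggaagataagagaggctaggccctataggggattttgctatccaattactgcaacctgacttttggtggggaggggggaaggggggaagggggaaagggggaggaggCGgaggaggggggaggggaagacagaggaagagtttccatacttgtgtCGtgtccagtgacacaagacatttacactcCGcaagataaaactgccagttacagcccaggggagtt
Gdf2: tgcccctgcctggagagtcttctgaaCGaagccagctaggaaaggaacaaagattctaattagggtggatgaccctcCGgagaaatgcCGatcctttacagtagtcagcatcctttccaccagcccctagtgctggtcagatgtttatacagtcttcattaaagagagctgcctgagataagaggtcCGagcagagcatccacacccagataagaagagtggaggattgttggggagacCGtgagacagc

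The Id4 window holds 35 CpG and the Tgfbr1 window 29, against 3 for Bmp10 and 5 for Gdf2. These 4 windows do not stand for the whole range. Id3, Id2 and Fstl1, the 3 highest members, have 18, 18 and 16 CpG, below the median of 22 over detected members. Only windows that touch no annotated exon were printed. A RefSeq window was available for 44 members, of which 16 touch an annotated exon of the later gene models. Over the 28 detected members among the 44 the median was 22 CpG, and over the 16 others it was 14. The same medians were 16 CpG over 9823 detected protein-coding genes and 3 CpG over 6494 others. The groups of members overlapped widely, from 1 to 49 CpG in detected members and from 1 to 32 in the rest. Bmpr1b, at 4.54 and 4.25 TPM, had 1 CpG, while Acvr1c, a receptor gene at 0.14 and 0.15 TPM, had 32. The Bmpr1b window, at chr3:141982265-141982514 (-), lies inside the later gene model, whose upstream end is at 142169425. It need not be the start in use here. Motifs were searched on both strands, namely GGCGCC, a GC-rich element to which BMP SMADs are known to bind, GTCTAGAC, a palindromic SMAD-binding sequence, and TATAAA, the TATA box. GGCGCC stood in 6 of the 28 windows of detected members (21.4%) and in 2 of the 16 others (12.5%), against 17.4% and 5.39% of the windows of detected and undetected protein-coding genes. Both the Id4 and the Tgfbr1 window hold it once. GTCTAGAC was in 0 member windows and in 0.184% of all 16317, and TATAAA was in 6 of 44 member windows (13.6%) and in 11.7% of all. A match describes letters in these windows only.

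**Figure D2:**
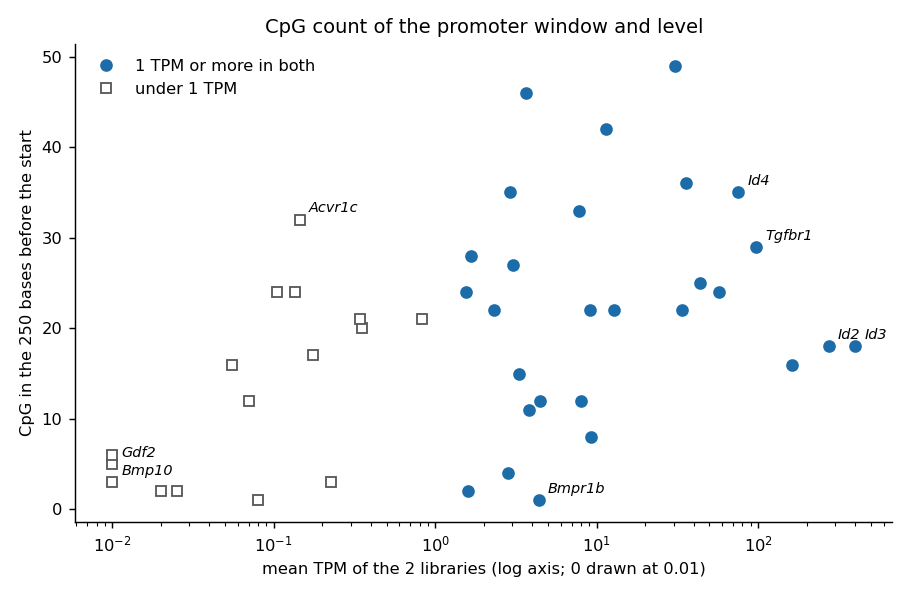
CpG count in the 250 bases before the start (vertical axis) against mean TPM of the 2 libraries (log axis, 0 drawn at 0.01) for the 44 members with a RefSeq window; filled circles are members at 1 TPM or more in both libraries. Low CpG counts occur on both sides of 1 TPM, and the 3 members at 0 counts lie at 6 CpG or fewer.

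Among the BMP ligands Bmp7 was the highest, and 5 of 10 members were detected. Bmp7 (ENSMUSG00000008999, chromosome 2, 172868012 to 172940321, minus strand) had 15.4 TPM in replicate 1 and 13.3 TPM in replicate 2, 57.0% and 55.9% of the class sum. Bmp4, a dorsal signal of the neural tube and of many other tissues, had 4.01 and 3.60 TPM. Bmp5, a close relative of Bmp7, had 3.06 and 2.62 TPM. Bmp6, of the same subgroup, had 2.07 and 2.53 TPM, and Bmp2, the close relative of Bmp4, had 1.43 and 1.09 TPM. The order of Bmp7 over its relatives was clear in both libraries, whereas Bmp5 and Bmp6 are neighbours in the order of levels and were not separated.

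Deposited interval bounds of TPM allowed such comparisons within a library: a pair of genes was called separated where each library put the same gene's interval wholly above the other's. Bmp7 exceeded Bmp4 by 3.69-fold, Bmp5 by 4.91-fold and Bmp6 by 6.03-fold on the (TPM + 0.1) scale, each separated in both libraries. Bmp4 exceeded Bmp2 by 2.89-fold and was separated as well. The 5 undetected BMP ligands ranged from 0 to 0.71 TPM over both libraries. Bmp3, an atypical BMP that can oppose other BMPs, had 0.71 and 0.42 TPM. Bmp8b and Bmp8a, a linked gene pair, had 13.1 and 9.04 counts and 2 and 6 counts, and their intervals overlapped. Bmp15, known from the oocyte, had 4 counts in replicate 1 and 0 in replicate 2. Bmp10, known from the heart, had 0 counts in both libraries, which allows up to 0.0772 CPM (counts scaled to all counts on genes) in replicate 1 and 0.0653 in replicate 2 from counting error alone.

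GDF ligands were lower, with 3 of 9 detected. Gdf11, which patterns the trunk and limits neurogenesis in the olfactory epithelium, had 7.66 and 7.86 TPM, 58.7% and 55.4% of the class sum. Gdf10, a relative of Bmp3, had 3.06 and 2.76 TPM and exceeded Bmp3 by 4.63-fold (2.51-fold with 1 TPM added in place of 0.1), separated in both libraries. Gdf9, known from the oocyte, had 1.79 and 2.78 TPM from 71 and 123 counts. Its intervals overlapped between the libraries. The others ranged from 0 to 0.50 TPM. Gdf7, a ligand of the roof plate in the spinal cord, had 7 and 21 counts (0.20 and 0.50 TPM). Gdf5 and Gdf6, ligands of joint formation, had 0.12 and 0.04 TPM and 0.12 and 0.14 TPM, and their intervals overlapped. Gdf2, a circulating ligand made in the liver, had 0 counts in both libraries.

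The TGF-beta ligands were led by Tgfb2. It had 9.36 and 9.09 TPM, Tgfb3 had 3.47 and 2.66 TPM, and Tgfb1, the ligand best known from blood and immune cells, had 1.06 and 0.59 TPM. All 3 pairs were separated in both libraries, with Tgfb2 2.97-fold over Tgfb3 and 10.4-fold over Tgfb1, and Tgfb3 3.51-fold over Tgfb1. With 1 TPM added in place of 0.1, the last 2 folds were 5.65 and 2.23. Counting coding transcripts only, a setting chosen after the values were seen, Tgfb2 lay 1.70-fold over Tgfb3 and 6.31-fold over Tgfb1. Of the activin subunits 0 of 4 were detected. Inhbb had 0.29 and 0.39 TPM, Inhba had 0.34 and 0.11 TPM, Inhbc had 2 counts and 0 counts, and Inhbe, known from the liver, had 0 counts in both. BMP and GDF ligands together summed to 2.98-fold the TGF-beta ligands, a log2 ratio of 1.57 ± 0.07 (SD, n = 2). Bmp1, named with the BMPs but a metalloprotease that cleaves procollagens and chordin, had 15.6 and 18.4 TPM and was not separated from Bmp7 in both libraries.

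Type I and type II receptors summed to 162 and 97.1 TPM in replicate 1 and to 150 and 112 TPM in replicate 2, against 27.0 and 23.8 TPM for BMP ligands, and 10 of the 11 receptors were detected. Tgfbr1 (ENSMUSG00000007613, chromosome 4, 47353222 to 47414931, plus strand), the type I receptor for TGF-beta, had 101 TPM in replicate 1 and 93.0 TPM in replicate 2. Bmpr1a, a type I receptor for BMPs, had 37.8 and 34.1 TPM. Acvr1b, the type I receptor for activins, had 11.2 and 11.7 TPM. Tgfbr1 thus made up 62.4% and 61.9% of the class sum. It exceeded Acvr1b by 8.39-fold, and Bmpr1a exceeded its paralog Bmpr1b (4.54 and 4.25 TPM) by 8.01-fold. Both pairs were separated in both libraries. Acvr1, another BMP type I receptor, had 3.60 and 3.73 TPM, and Acvrl1, the receptor known from endothelium, had 3.76 and 3.19 TPM. This pair was not separated. The TPM of Acvrl1 lay below its own deposited interval in both libraries. In posterior mean TPM Acvrl1 had 5.08 and 4.05, above Acvr1 at 3.70 and 3.77. The exception to detection was Acvr1c, which was separated from Acvr1b in both libraries. It lay 47.2-fold below Acvr1b, a size that ranged from 10.9-fold to 74.1-fold with other added values and was 23.7-fold in posterior mean TPM.

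Of the type II receptors, which were detected in 4 of 4 cases, Acvr2b was highest. Acvr2b, shared by activins, GDFs and BMPs, had 49.3 TPM in replicate 1 and 65.1 TPM in replicate 2. Its paralog Acvr2a had 30.7 and 30.1 TPM, and Acvr2b lay 1.86-fold above it, separated in both. Bmpr2, the type II receptor dedicated to BMPs, had 9.51 and 8.59 TPM, and Tgfbr2, the one for TGF-beta, had 7.48 and 8.51 TPM. These 2 were separated in replicate 1 and not in replicate 2. Both lay far below Tgfbr1, the type I partner of Tgfbr2. Type I over type II receptors gave a log2 ratio of 0.58 ± 0.23, with replicate values of 0.74 and 0.42, and 0.32 without the highest member of each class. That setting left out Acvr2b along with Tgfbr1. Without Tgfbr1 alone, the other type I receptors summed below the type II receptors in both libraries. Tgfbr3, the co-receptor betaglycan, had 6.86 and 5.81 TPM, and Bambi, a decoy receptor without a kinase domain, had 6.59 and 5.61 TPM. Their intervals overlapped in both libraries.

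All receptor-regulated SMADs but Smad9 were detected, each above 10 TPM. Smad1 (ENSMUSG00000031681) had 46.4 and 41.4 TPM, and Smad5 had 34.6 and 33.4 TPM. Smad1 lay 1.29-fold above Smad5, a small difference that was separated in both libraries. Smad9 had 8 counts in replicate 1 and 36 in replicate 2 (0.06 and 0.21 TPM). Smad1 was 197-fold above it and Smad5 153-fold, on a scale where the added 0.1 TPM exceeds the level of Smad9 in replicate 1. With 1 or 0.01 TPM added, these folds were 39.6 and 353 for Smad1 and 30.9 and 274 for Smad5. Smad2 had 56.8 and 52.0 TPM, and Smad3, the other transducer of TGF-beta and activin signals, had 12.8 and 12.7 TPM, a separated 4.23-fold difference. Summed over classes, BMP-branch SMADs exceeded TGF-beta-branch SMADs by 1.16-fold, a log2 ratio of 0.22 in replicate 1 and 0.21 in replicate 2. Leaving out Smad1 and Smad2, the highest member of each class, gave a log2 ratio of 1.42. Without Smad1 alone, the BMP-branch SMADs summed below the TGF-beta-branch SMADs in both libraries.

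Smad4, the partner of both branches, had 21.2 and 23.5 TPM. The inhibitory SMADs, which are induced by the pathway and turn it down, were lower and alike in level. Smad6, directed mainly at BMP receptors, had 3.0 and 3.07 TPM, and Smad7, which acts on both branches, had 3.16 and 2.56 TPM. Their intervals overlapped in both libraries, and Smad4 exceeded Smad7 by 7.62-fold.

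The ID genes were the most abundant class, with all 4 above 50 TPM. ID proteins are helix-loop-helix factors that lack a DNA-binding region and hold back proneural partners. Id3 (ENSMUSG00000007872, chromosome 4, 136143497 to 136145755, plus strand) had 382 TPM in replicate 1 and 418 TPM in replicate 2. Id2 had 283 and 264 TPM, Id4 had 76.9 and 73.8 TPM, and Id1 had 50.3 and 54.4 TPM. Among the protein-coding genes detected, Id3 stood at the 97.7th percentile and Id2 at the 96.2nd. All 6 pairs of ID genes were separated in both libraries, from 1.44-fold for Id4 over Id1 to 7.63-fold for Id3 over Id1. Hence the order Id3, Id2, Id4, Id1 held in each library. ID genes exceeded the inhibitory SMADs, the other class known to be induced by the pathway, by 136-fold in summed TPM (log2 ratio 7.09 ± 0.12). In summed counts, which are not corrected for the short ID transcripts, the log2 ratio was 5.61.

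Secreted antagonists were dominated by Fstl1. This follistatin-like glycoprotein had 166 and 157 TPM (81.6% and 82.2% of the class sum) and was the highest member outside the ID genes. Fst, which binds activins, had 29.5 TPM in replicate 1 and 24.1 TPM in replicate 2, 6.03-fold below Fstl1 and separated. Nog, which encodes the BMP trap noggin, had 3.82 and 4.66 TPM. Chrd, encoding chordin, had 1.5 and 1.83 TPM, and Nog exceeded it by 2.46-fold, separated in both. Bmper, a BMP-binding modulator of endothelial cells, had 1.04 and 2.07 TPM. Grem1, encoding the BMP antagonist gremlin, had 15 and 9 counts (0.14 and 0.07 TPM). Summed antagonists exceeded BMP and GDF ligands by 5.05-fold (log2 ratio 2.33 ± 0.01), and without the highest member of each class the log2 ratio was 1.07. That setting left out Bmp7 and Gdf11 along with Fstl1. Without Fstl1 alone, the other antagonists summed below the BMP and GDF ligands in both libraries.

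Latent TGF-beta binding proteins anchor or store TGF-beta in the matrix, and 3 of 4 were detected. Ltbp1 had 4.18 and 4.79 TPM, Ltbp4 had 2.23 and 4.42 TPM, and Ltbp3 had 1.34 and 1.85 TPM. Ltbp1 exceeded Ltbp3 by 2.73-fold and Ltbp4 exceeded Ltbp3 by 1.94-fold, both separated in both libraries. Ltbp2, the family member that does not bind latent TGF-beta, had 1 and 8.94 counts (0.07 and 0.04 TPM) and was separated from Ltbp1 in both libraries. The 29.7-fold difference rests on the added 0.1 TPM, since it ranged from 5.19-fold to 70.9-fold with other added values and was 12.9-fold in posterior mean TPM.

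**Figure D3:**
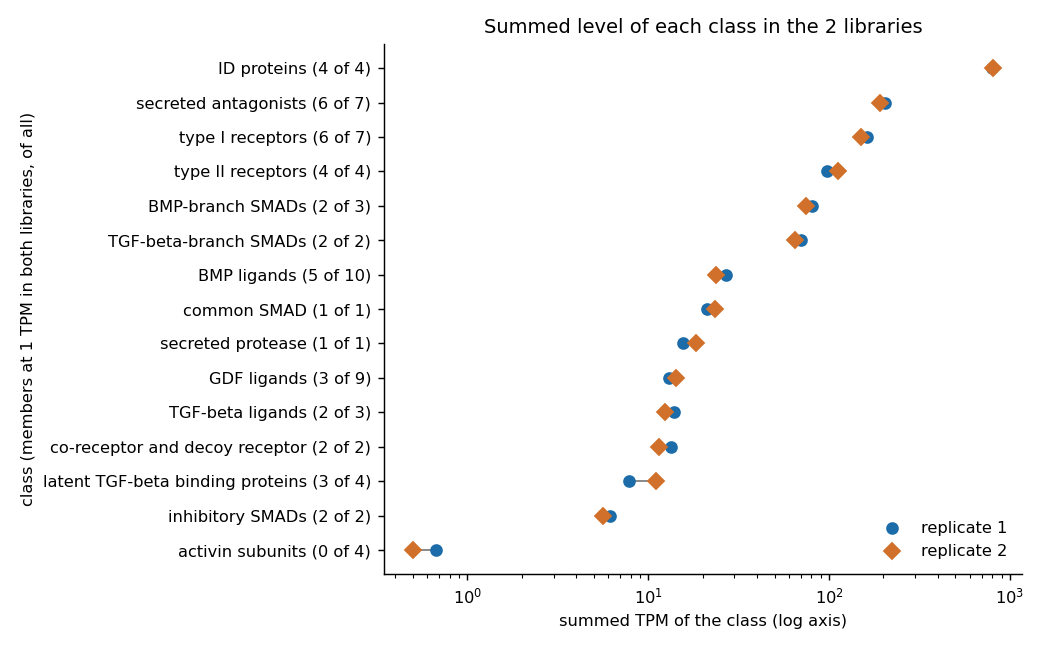
Summed TPM of each of the 15 classes in replicate 1 (circles) and replicate 2 (diamonds) on a log axis, with the number of members at 1 TPM in both libraries of all members in brackets. ID proteins lie at 792 and 811 TPM, antagonists and type I receptors between 150 and 203 TPM, and each ligand class under 27 TPM.

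Of the 36 pairs measured, 29 were separated and 7 were not. Among the 25 pairs with both genes at 1 TPM, 21 (84.0%) were separated, against 90.3% of all pairs of protein-coding genes at that level, so separation as such was not more frequent here. The whole order of levels was less resolved than these pairs. Of the 42 steps between neighbouring detected members, 9 were separated in both libraries, 5 of them being the steps from Id3 down through Id2, Fstl1, Tgfbr1 and Id4 to Acvr2b. Below Acvr1b no neighbouring members were separated in both libraries.

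**Figure D4:**
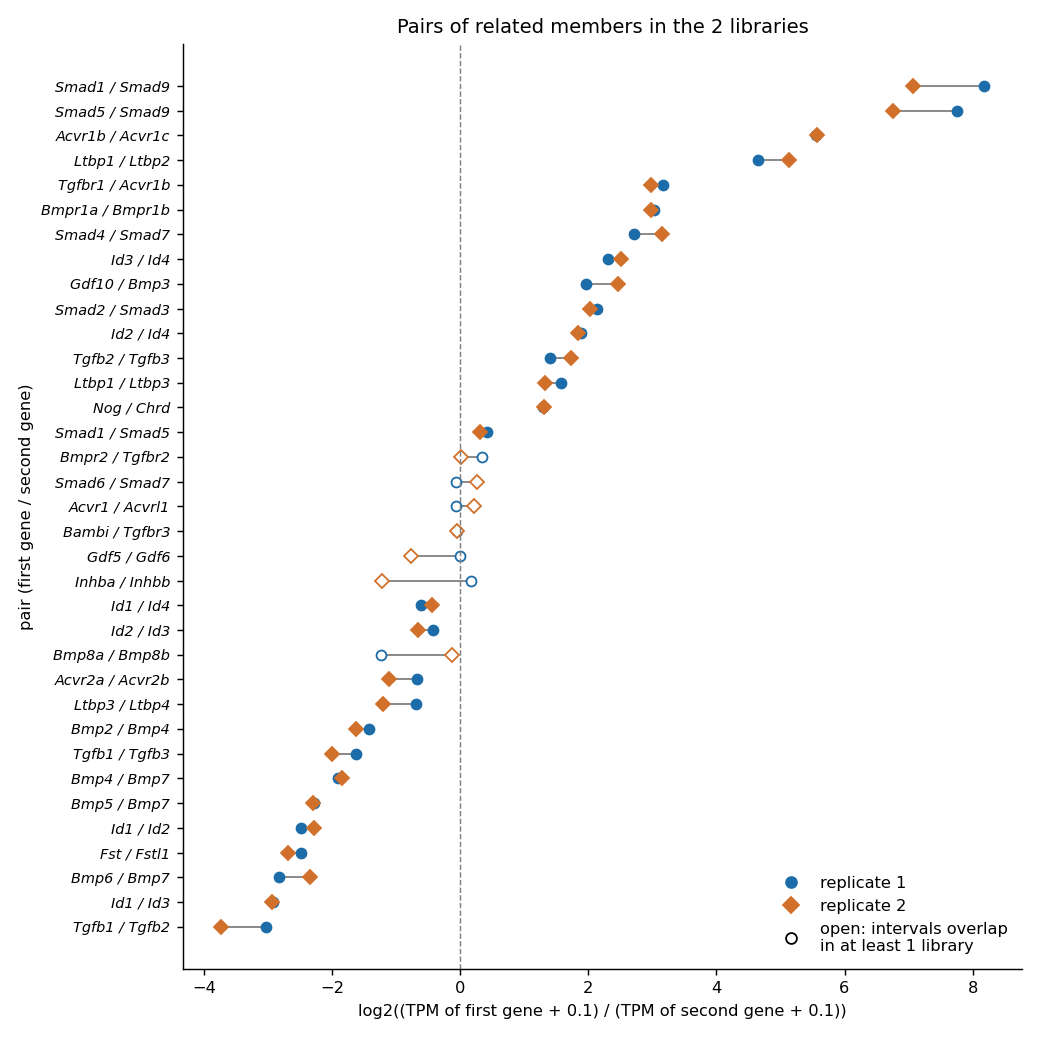
Log2 ratio of (TPM + 0.1) for 35 pairs, first gene over second gene, in replicate 1 (circles) and replicate 2 (diamonds); open symbols mark the 7 pairs whose intervals overlapped in at least 1 library. Pairs with Smad9 lie farthest to the right, and Tgfb1 against Tgfb2 farthest to the left.

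Other genes of the pathway, from a list of 66 that the name pattern leaves out, were also uneven in level, with 46 at 1 TPM in both libraries. Of 6 further ligands only Inha, the inhibin alpha subunit, was detected, at 1.22 and 1.00 TPM, and Nodal had 4 and 0 counts. Of 8 receptors and co-receptors 4 were detected. Rgmb and Rgma, repulsive guidance molecules that act as BMP co-receptors, had 49.4 and 48.3 TPM and 26.4 and 29.8 TPM. Their receptor neogenin (Neo1) had 21.6 and 22.8 TPM. Of 23 secreted modulators 14 were detected. Twsg1, a chordin and BMP partner, had 85.0 and 80.0 TPM. The integrin subunits Itgb8, at 40.2 and 36.5 TPM, and Itgav, at 30.8 and 32.0 TPM, form a receptor that activates latent TGF-beta. Intracellular regulators were detected in 15 of 15 cases. Fkbp1a, which binds type I receptors, had 459 and 434 TPM, and the corepressors Tgif2 and Tgif1 had 62.0 and 68.2 TPM and 44.6 and 40.8 TPM. Of 14 genes known as targets in other settings 12 were detected. Msx1, a homeobox gene of the dorsal midline, had 68.5 and 80.2 TPM, Hey1 had 46.0 and 43.0 TPM, and Pax3 had 31.7 and 29.3 TPM.

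Most members used 1 main transcript. Of 28 detected members with at least 2 listed transcripts, 26 (92.9%) had the same leading transcript in both libraries, against 91.4% of all such genes. The exceptions were Acvr2b and Tgfb2. For Acvr2b, Acvr2b-202 held 52.2% of the gene's level in replicate 1 and 46.8% in replicate 2, and Acvr2b-201 held the rest, so that the lead changed over a near-even split. For Tgfb2, the coding transcript Tgfb2-201 held 43.0% and 31.6%, and Tgfb2-205, annotated as a retained intron, held 24.3% and 36.9%. Retained-intron transcripts together gave 38.3% and 46.6% of Tgfb2, so its coding level, at 5.62 and 4.85 TPM, was lower than the gene level. Tgfbr2 was shared between 2 coding transcripts, with 64.2% and 57.0% for Tgfbr2-201. Fstl1-201, the coding form, held 76.8% and 74.9% of Fstl1. Such shares are estimates from reads that several transcripts share.

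The 2 libraries gave similar levels for the members. Over the 43 detected members the median absolute log2 difference in TPM was 0.15, against 0.11 over detected protein-coding genes, and 72.1% against 85.0% lay within 1.2-fold. The deposited intervals of 27 of these 43 members overlapped between the libraries, and those of 16 did not. The same share was not taken over all detected protein-coding genes, so this count does not set the members apart. A two-sided exact binomial test on rounded counts, adjusted by Benjamini-Hochberg over 17148 genes and requiring a 2-fold difference, called 1 of 53 members. The same test called 2.82% of all genes tested, 1.3% as higher and 1.52% as lower in replicate 2. It compares these 2 libraries and no conditions. Of the 53 members 23 were higher and 30 lower in replicate 2, again without a share over all genes.

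The member called was Smad9 (ENSMUSG00000027796, chromosome 3, 54755582 to 54801257, plus strand), at the 8 and 36 counts given above. Its log2 ratio of counts was 1.80 (exact binomial test, adjusted p = 0.00143), and its level stayed under 1 TPM in both libraries. With edgeR's exact test at an assumed coefficient of variation of 0.1, its adjusted p was 0.0765. Bmper fell just short of 2-fold, with 103 and 245 counts and a log2 ratio of 0.99 (exact binomial test, adjusted p = 2.6e-08). It was called when libraries were scaled by total gene counts or by spike-ins. Acvr2b, with 2130 and 3364 counts, had a log2 ratio of 0.40. The summed level of the roof plate and dorsal midline markers was 0.16 higher on the log2 scale in replicate 2. Most of this came from Msx1 (68.5 and 80.2 TPM). Lmx1a, Wnt3a and Rspo2 were higher too, and Msx2 and Zic1 were lower. The sum of the mesenchyme and meninges markers was 0.07 lower (log2 ratio -0.07), with Col1a1 and Col1a2 higher and the rest lower. Larger shifts were seen in the low sums of skeletal muscle (log2 ratio -0.19) and Hox genes (-1.22). No marker of any list was called, but a call needs 2-fold and the sums hide shifts of single markers. Log2 ratios of counts for tested markers ran from -0.89 for Ptprc (macrophage) to 0.63 for Clic6 (choroid plexus). Rgs5 (mural cells) had -0.81. The part of these differences in the members' ratios was not tested. Of the 55 other pathway genes tested, the binomial test called 0 and edgeR 0, against 2.82% and 0.904% of all genes tested. An unadjusted p under 0.05 was reached by 24 of them in the binomial test and by 1 in edgeR's test. The share of all genes at that unadjusted level was not taken, so these 2 counts cannot be read as a result about the pathway.

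**Figure D5:**
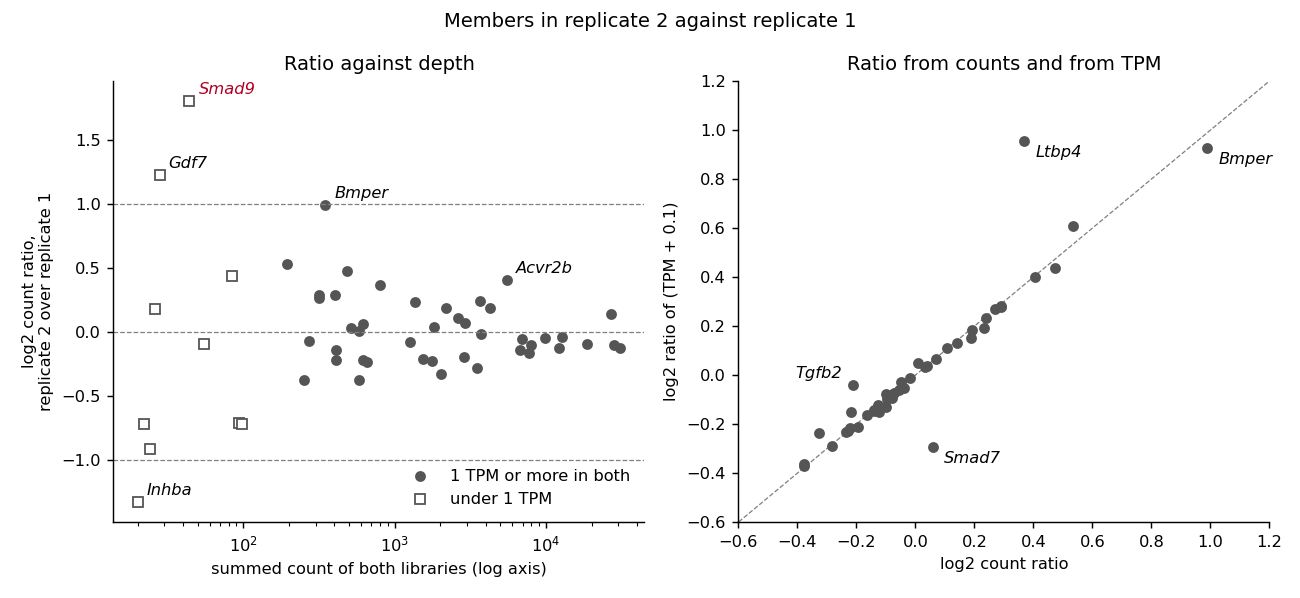
Left, log2 ratio of counts in replicate 2 over replicate 1 against the summed count (log axis) for the 53 members tested, with dashed lines at 2-fold; right, the same ratio against the log2 ratio of (TPM + 0.1) for the 43 detected members. Members beyond 2-fold all lie under 1 TPM, and Ltbp4 and Smad7 lie farthest from the diagonal.

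For a few members counts and TPM gave different ratios between the libraries, because TPM divides by an effective length that depends on the transcripts assigned. Ltbp4 had 314 and 484 counts, a log2 ratio of 0.37, while its TPM ratio was 0.96. Its retained-intron transcript Ltbp4-208, of 550 bases, held 0% in replicate 1 and 37.2% in replicate 2. Smad7 had 276 and 343 counts, a log2 ratio of 0.06, while its TPM ratio was -0.29. There the short Smad7-204, of 769 bases, held 22.8% in replicate 1 and 0% in replicate 2. For Ltbp4 the coding level alone was 2.22 and 2.78 TPM.

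Exons of 19 members share bases with another annotated gene, with the use of strand in counting not given in the sources used here. For 17 of them, 12 detected, the partner lies on the opposite strand. The largest overlap was in Bmp5, where Gm26903 covers 46.7% of the exon bases but was listed at 0.02 and 0 TPM. Abundant opposite-strand partners were Orc4 for Acvr2a (114 and 108 TPM, 7.84% of the exon bases) and Txndc5 for Bmp6 (97.9 and 103 TPM, 5.74%). The level of Bmp6, which is lower than that of its partner, is uncertain to that extent. Expected counts were fractional, and so partly divided with other rows, for 8 members: Acvr2a, Bmp5, Bmp8b, Bmpr1a, Gdf5, Id4, Ltbp2 and Ltbp3.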

How the data were processed

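Each library used 10 ng of RNA above 200 nt plus ERCC spike-ins, and the labels' protocols cite a Smart-seq method. Such cDNA is amplified, so intervals and count limits cover counting error only. The notes name assembly mm10 and annotation M4, with aligner, quantifier and use of strand not given in the sources used here. Per the file headers, the deposited gene and transcript tables hold an expected count (an estimated number of reads, not always whole), TPM as maximum likelihood and as posterior mean, and FPKM. TPM is scaled over all rows, and spike-ins took 15.2% and 14.8% of it. The deposited interval bounds, treated as a signal, lie around the posterior mean TPM at a level not given in the sources used here. Transcript shares were deposited as a percent of the gene. The labels call the pools biological replicates and give their numbers of embryos, and p-values compare only these 2 libraries.

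Symbols, transcript types and coordinates (1-based) came from GENCODE M21, a later annotation on the same assembly, by identifier without version. The member rule uses names only, but this rule and the lists were chosen with earlier results of these data known, and the promoter windows and the scan of neighbouring members after values were seen. Named in full were the 3 highest members of each class, members of the pairs described, members called different and members at 0 counts, and the 3 highest of each role among other pathway genes. Where RefSeq lists several starts the most upstream was used. Certain genes and 1 pair are not reported here. Members for which no RefSeq window was found include Acvrl1, Bambi, Bmp1, Bmp2, Bmp3, Bmp7, Fst, Gdf3, Gdf5, Gdf6, Gdf9, Id1, Nog, Smad2, Smad4, Smad7, Tgfb3 and Tgfbr3.

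Expected counts were rounded to whole numbers and compared between libraries by a two-sided exact binomial test against TMM-scaled library sizes (edgeR 4.0.16, R 4.3.3) wherever both libraries together held 20 counts or more. Calls needed an adjusted p under 0.05 and 2-fold; log2 ratios of counts used a prior count of 1. With 2 libraries an exact sign-flip test gives at least 0.5, so levels carry no p. The test was checked on simulated counts that held counting error alone, so the check does not cover amplification or the spread between pools. Alternatives tried were scaling by DESeq2 (1.42.0) size factors, gene totals or spike-ins, posterior mean TPM, FPKM, other thresholds and each replicate alone. Software was Python 3.11.15 with matplotlib 3.10.9, pandas 2.3.3, scipy 1.17.1 and numpy 2.4.6.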

Additional observations from a re-analysis of the deposited data

How the results depend on the processing

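Detection ranged from 37 members (2 TPM) to 44 (0.5 TPM), and separated pairs from 21 (both genes at 1 TPM) to 30. The same leading transcript was found in 25 to 30 members, the last out of 35. In summed counts the log2 ratio was 1.68 for BMP and GDF over TGF-beta ligands, 1.01 for type I over type II receptors, 0.82 for BMP-branch over TGF-beta-branch SMADs, 2.22 for antagonists over BMP and GDF ligands and 5.61 for ID genes over inhibitory SMADs. Without the highest member of each class the first 4 were 2.14, 0.32, 1.42 and 1.07. With posterior mean TPM the SMAD, antagonist and ID ratios were 0.19, 2.30 and 6.92. Leaving out a replicate moved the 5 ratios between 1.53 and 1.62, 0.42 and 0.74, 0.21 and 0.22, 2.33 and 2.34, and 7.01 and 7.17. None of the 5 ratios changed sign in these settings, which left out the highest members of both sides together. They do not cover the loss of a single leading gene. Leaving out only Tgfbr1, Smad1 or Fstl1 would reverse the receptor, SMAD or antagonist ratio.

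Between libraries 2 of 53 members, Smad9 and Bmper, were called with scaling by total gene counts or spike-in totals, against 1 with TMM. These 2 scalings called 2.83% and 2.76% of all genes tested, against 2.82% with TMM. Without a minimum fold 25 of 53 members and 6001 genes (35.0% of those tested) were called, against 484 genes with it. With a summed count of at least 100 the binomial test called 0 of 43 members and 82 genes (0.583% of those tested), Smad9 no longer being tested. EdgeR's exact test called 0 members and 155 genes (0.904% of those tested). In that test 4 of 53 members had an unadjusted p under 0.05, a share not taken over all genes. Bmper had an adjusted p of 0.0233 in the same test, at just under 2-fold. Of the 36 pair ratios, a pseudocount of 1 moved 18 by more than the SD of the libraries, 0.01 moved 7, posterior mean TPM moved 8 and coding transcripts only (added after the values were seen) moved 9; no separated pair changed direction. No paired analysis was possible because there is only 1 group. With 3 counts worth 0.0772 and 0.0653 CPM, members under about 20 summed counts were not compared between libraries.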

Other observations

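Several members lie next to each other in the genome, a property the name pattern did not use. Within 500 kb of each other lay 8 pairs made of 13 members, a scan added after values were seen. Gdf10 and Gdf2 on chromosome 14 are 3.06 kb apart, and Gdf10 had 3.06 and 2.76 TPM while Gdf2 had 0 counts in both libraries. The type I receptors Acvr1 and Acvr1c on chromosome 2 are 30.7 kb apart, at 3.60 and 3.73 TPM against 0.14 and 0.15 TPM. Acvrl1 and Acvr1b on chromosome 15, 28.7 kb apart, had 3.76 and 3.19 TPM against 11.2 and 11.7 TPM. Smad3 and Smad6 on chromosome 9, a transducer and an inhibitor 195 kb apart, had 12.8 and 12.7 TPM against 3.0 and 3.07 TPM. By contrast Inhbe and Inhbc on chromosome 10, 1.91 kb apart, were both at 0.04 TPM or below. Bmp8b and Bmp8a on chromosome 4, 181 kb apart, were both at 0.23 TPM or below.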
